A study of Mus musculus with 62 samples.

Results

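The 6-week comparison set 5 tibialis anterior libraries from mice bearing cachectic melanoma (CAC) against 5 from mice bearing non-cachectic melanoma (NCAC), which are 10 of the 62 libraries of the series. The libraries were chosen by the group and week in their labels, and all genes of the deposited table were read. Female NCI Ath/nude mice, 2 months old at injection according to the series description, received melanoma cells labelled cachectic, melanoma cells labelled non-cachectic, or a mock injection. The sample labels instead give the strain as C57BL6/J, and the sources used here do not settle which is right. A protocol text shared by the samples also speaks of LLC cells and a 3-week time, which fits neither the melanoma groups nor these weeks, and this too is not settled. Which melanoma lines or clones were injected, and where, is not given in the sources used here. The muscle was sequenced as polyadenylated RNA 2, 4, 6 or 8 weeks later, and the mock group (Con) at 6 weeks also held 5 libraries. Labels call the libraries biological replicates and name no batch.

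Cachexia is the loss of muscle and fat that accompanies many tumours. In muscle, circulating cytokines of the interleukin-6 family signal through gp130 receptors to the transcription factor STAT3, glucocorticoids act through their nuclear receptor, and reduced insulin signalling releases FOXO factors. These routes are known to induce ubiquitin ligases that mark contractile proteins for the proteasome. The tibialis anterior is a mostly fast-twitch muscle of the shin.

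CAC muscles at 6 weeks held far more mRNA of metallothioneins, acute-phase genes, the STAT3 feedback inhibitor Socs3 and glucocorticoid-responsive genes than the NCAC muscles. They held less of cardiac actin and of immunoglobulin M. The ubiquitin ligases Trim63 and Fbxo32 were higher on average but uneven between CAC libraries. Fbxo32 overlapped between the groups, and its rescaled call depended on single libraries. Mitochondrial energy genes were lower in part as deposited and nearly throughout after rescaling. TPM are transcripts counted per fixed total and corrected for gene length. Of the 11107 genes that averaged 1 TPM or more over all libraries, 7522 passed limma's test at a Benjamini-Hochberg adjusted p under 0.05, which is 67.7%. As deposited, 7131 genes were higher in CAC (64.2%) and 391 lower (3.52%). After rescaling each library by median-of-ratios size factors, 4728 genes passed (42.6%), with 2315 higher (20.8%) and 2413 lower (21.7%). The 2315 genes higher after rescaling and the 391 lower as deposited were called in that direction under both scalings, and 178 genes (1.6%) were called higher as deposited and lower when rescaled. All CAC libraries lay above all NCAC libraries for 43.1% of genes as deposited and 12.9% rescaled, and below all of them for 1.22% and 15.2%. The filter on the mean included the CAC libraries. Lcn2, Tmem252, C7, Bcl3, Asns and Gpnmb averaged under 1 TPM in every NCAC and mock group and passed it only through CAC. Their calls, and list counts that hold such genes, are therefore not independent of the filter.

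The scaling set the balance of directions. TPM values share a fixed total in each library, so a change in abundant transcripts shifts the values of others. Transcripts of the mitochondrial genome took 38.6% ± 3.39 (SD, n = 5) of TPM in CAC, 47.8% ± 7.9 in NCAC and 47.9% ± 2.74 in mock muscle. With the mitochondrially encoded genes left out and each library brought back to the same total, 4949 genes were higher in CAC and 1019 lower. The part of the mitochondrial share in the balance of directions was not tested. The median log2 difference over the genes tested was 0.42 as deposited and 0.01 rescaled. Each difference below is CAC minus NCAC on the log2(TPM + 1) scale with its standard error, first as deposited and then rescaled, and adjusted p-values come from limma over all 11107 genes. Counts called within a list below are to be read beside the shares over all genes tested. These were 64.2% higher and 3.52% lower as deposited, and 20.8% and 21.7% rescaled.

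Some libraries stood apart before any test. NCAC replicate 4 had 61.1% of its TPM in mitochondrially encoded transcripts, against 42.3 to 49.1% in the other NCAC libraries, and the lowest size factor of the series, 0.613. CAC replicate 1 had the highest size factor, 1.47, and 33.5% mitochondrially encoded TPM. NCAC replicate 5 held 109 TPM of the skin keratins Krt5, Krt10 and Krt14 summed, against 1.25 to 2.3 in the other NCAC libraries. Without NCAC replicate 4 and CAC replicate 1, 4381 genes were higher and 369 lower as deposited, and 1392 and 1656 rescaled. Rank correlations over the genes tested were 0.953 to 0.983 within CAC, 0.967 to 0.987 within NCAC and 0.902 to 0.962 between the groups, and no columns were identical.

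Of the ligands of the interleukin-6 family, Il6, Il11, Lif, Osm and Clcf1 were barely present in the muscle itself. Il6, Il11, Lif and Osm each stayed at or under 0.219 TPM in all 10 libraries, and Clcf1 reached 0.603 TPM, so none of these 5 was tested; they are named here after their values were seen. The ligands Cntf and Ctf1, also named after their values were seen, were higher and were tested. Cntf averaged 6.05 TPM in CAC and 2.84 TPM in NCAC (log2 0.80, adjusted p = 0.00108, and 0.41 rescaled, adjusted p = 0.132). Ctf1 averaged 5.76 and 7.28 TPM (log2 -0.30, adjusted p = 0.0767, and -0.72 rescaled, adjusted p = 0.000274). The receptors were measurable as well. Osmr, the receptor chain for oncostatin M, stood at 11.3, 6.71, 8.45, 8.79 and 6.84 TPM in CAC replicates 1 to 5 and at 1.54, 1.75, 1.33, 0.732 and 1.59 TPM in NCAC. Its groups did not overlap, and the log2 difference was 1.98 ± 0.16 (adjusted p = 1.84e-14), or 1.61 rescaled (adjusted p = 3.3e-13). Il6ra, the interleukin-6 binding chain, rose from 0.64 to 1.91 TPM in NCAC to between 5.96 and 31.6 TPM in CAC, a log2 difference of 2.50 ± 0.50 (adjusted p = 3.74e-05; 2.09 rescaled, adjusted p = 0.000496). Il6st, which encodes the shared signalling chain gp130, rose from 15.7 to 34.9 TPM to between 50.6 and 77.5 TPM (log2 1.12 ± 0.17, adjusted p = 3.64e-07; 0.64 rescaled, adjusted p = 3.7e-06). Of the 8 ligand and receptor genes tested, 6 were higher as deposited, and 3 were higher and 2 lower rescaled; 1 was lower rescaled without NCAC replicate 4 or without CAC replicate 1.

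Downstream of these receptors lie STAT3 and its target genes. Stat3 itself stood at 74.4, 44.8, 50.9, 32.3 and 32.5 TPM in CAC and at 11.8, 10.8, 14.1, 7.13 and 10.1 TPM in NCAC. Every CAC library was above every NCAC library, and the log2 difference was 1.98 ± 0.17 (adjusted p = 2.57e-13; 1.52 rescaled, adjusted p = 3.3e-13). Socs3, which encodes the feedback inhibitor of gp130 signalling, stood at 50.8, 32.6, 61.4, 34.8 and 42.9 TPM in CAC. In NCAC it was 2.61, 2.49, 1.66, 0.905 and 0.938 TPM. The means differed 25.9-fold with no overlap and little spread, with a log2 difference of 4.08 ± 0.26 (adjusted p = 7.62e-18; 3.68 rescaled, adjusted p = 5.49e-16). Bcl3, a nuclear cofactor of NF-kB, rose from 0.279 to 0.825 TPM to between 4.04 and 6.56 TPM (log2 1.90 ± 0.16). Jak3, a cytokine receptor kinase better known from lymphocytes, rose from 2.52 to 3.51 TPM to between 9.49 and 17.7 TPM (log2 1.65 ± 0.17). Of 13 JAK, STAT3 and feedback genes tested, 12 were higher as deposited and 6 rescaled, with median log2 differences of 1.27 and 0.87; without CAC replicate 1 and NCAC replicate 4, the pair that stood apart in size factor, 6 were higher under either scaling. Without NCAC replicate 4 alone, 8 were higher as deposited.

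The start of the Socs3 gene is shown because this gene had the smallest adjusted p of those described here. Read 5′ to 3′, the window runs from 250 bases before to 50 bases after the start of transcription on the minus strand, chr11:117969317-117969616 (GRCm38.p6, sequence from RefSeq), and capitals mark the letters TTCNNNGAA, the pattern of a STAT binding site, searched on both strands.
Socs3: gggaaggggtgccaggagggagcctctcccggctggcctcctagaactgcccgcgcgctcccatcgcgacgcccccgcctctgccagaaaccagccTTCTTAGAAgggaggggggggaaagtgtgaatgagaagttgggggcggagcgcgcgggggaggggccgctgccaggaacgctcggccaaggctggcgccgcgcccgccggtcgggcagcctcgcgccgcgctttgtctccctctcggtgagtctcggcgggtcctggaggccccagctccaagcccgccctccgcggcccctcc
In the GENCODE M21 annotation (GRCm38) the gene spans 117966079 to 117970047. The whole window lies inside that span, so the start used here is downstream of the outermost GENCODE start. The window holds 1 match, and 8.29% of 32817 promoter windows of the same length hold at least 1. A match is a description of letters and not of binding, which was not measured here.

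Acute-phase genes, which the liver and other tissues induce in inflammation, were among the largest increases. Serpina3n, a secreted protease inhibitor, stood at 377, 55.6, 70, 93.8 and 66.3 TPM in CAC and at 3.07, 2.4, 2.58, 1.18 and 2.35 TPM in NCAC (log2 4.94 ± 0.56, adjusted p = 9.12e-10; 4.51 rescaled, adjusted p = 1e-08). CAC replicate 1 was the high library, and the 57.2-fold difference of means was 30.8-fold without it. Lcn2, the iron-siderophore binding protein lipocalin 2, stood at 188, 35.4, 23.6, 28.7 and 12.4 TPM in CAC and between 0.155 and 0.617 TPM in NCAC (log2 4.86 ± 0.62, adjusted p = 1.3e-08; 4.51 rescaled). Its 208-fold difference of means was 90.3-fold without CAC replicate 1. Lcn2 averaged at most 0.564 TPM in any NCAC or mock group, so it entered the test only through CAC libraries. Hp, the haemoglobin scavenger haptoglobin, stood at 69.6, 28.4, 64.9, 261 and 85.3 TPM in CAC and at 1.36, 1.08, 2.32, 0.893 and 6.22 TPM in NCAC (log2 4.74 ± 0.71, adjusted p = 3.44e-07; 4.33 rescaled). Here CAC replicate 4 was the high library; the 42.8-fold difference was 26.1-fold without it and 72-fold without NCAC replicate 5.

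Cebpd, which encodes the transcription factor C/EBP delta, stood at 122, 87.7, 34.3, 58.1 and 77 TPM in CAC and at 17.7, 8.73, 2.79, 6.35 and 1.56 TPM in NCAC. The groups did not overlap (log2 3.41 ± 0.58, adjusted p = 3.44e-06; 2.95 rescaled, adjusted p = 5.79e-05), and the 10.2-fold difference of means was 15.6-fold without NCAC replicate 1. Lrg1, a secreted glycoprotein, rose from 15.6 to 21.2 TPM to between 53.4 and 113 TPM (log2 2.09 ± 0.27; 1.62 rescaled). Of 16 acute-phase and C/EBP genes tested, 11 were higher as deposited and 10 rescaled, with medians of 1.20 and 0.91. Of 10 hepatocyte markers tested with limma, 0 passed, with 0 at an unadjusted p under 0.05 under either scaling. All 12 markers summed to between 5.41 and 14.1 TPM in CAC and 3.38 and 9.83 TPM in NCAC. Alb, Apoa1, Apoa2, Ttr and Fabp1, named after their values were seen, had medians of 0 in CAC and at most 0.27 TPM in NCAC. They passed the filter through libraries outside this comparison, such as mock replicate 1 at 2 weeks, whose marker sum was 2630 TPM. For genes this low the test could hardly find a difference, and no conclusion is drawn from it. Neutrophils and adipocytes also make some of the acute-phase products. Of 12 neutrophil markers 2 were tested, S100a8 and S100a9 (named after their values were seen), and 2 were higher as deposited, 1 of them without CAC replicate 1; rescaled neither was called. The 12 markers summed to between 6.86 and 34 TPM in CAC and 3.03 and 12 TPM in NCAC. The highest sum was in CAC replicate 1, which was also the highest in Lcn2 and Serpina3n. The adipocyte sum was highest in CAC replicate 4, at 1440 TPM, the library with the most Hp. The part of these cells in the acute-phase result was not tested.

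Complement genes, whose products tag cells and debris for removal, were higher in most members tested. Serping1, the inhibitor of the first complement protease, stood at 97.8, 93.4, 128, 104 and 121 TPM in CAC and at 26.1, 25.1, 25.6, 7.63 and 29.8 TPM in NCAC (log2 2.32 ± 0.22, adjusted p = 4.86e-12; 1.85 rescaled, adjusted p = 1.68e-11). C7, a subunit of the membrane attack complex, was listed at 0 in NCAC replicate 4 and reached 0.576 TPM elsewhere in NCAC, against 2.11 to 3.57 TPM in CAC. It averaged under 1 TPM in every NCAC and mock group, so it entered the test only through CAC libraries. Of 16 complement genes tested, 14 were higher as deposited, and 13 were higher and 1 lower rescaled (medians 1.53 and 1.13). Macrophage markers, 3 of which are complement C1q chains and also in this list, moved in the same direction, and their part in the complement result was not tested.

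Interferon-stimulated genes serve antiviral defence. Of 20 tested, 6 were higher as deposited and 2 rescaled, with medians of 0.19 and -0.15 that were below those of all genes tested, 0.42 and 0.01. Irf9, a DNA-binding partner of STAT2, rose from 1.55 to 2.57 TPM to between 3.84 and 5.31 TPM (log2 0.80 ± 0.14, adjusted p = 3.81e-06; 0.43 rescaled, adjusted p = 0.00608). Stat2 gave a log2 difference of 0.69 ± 0.14 (adjusted p = 3.29e-05; 0.32 rescaled, adjusted p = 0.0216), and its rescaled call was lost without CAC replicate 3, CAC replicate 4 or NCAC replicate 4. Without NCAC replicate 4 the list had 3 higher genes as deposited and 1 rescaled. Receptors and transducers of other inflammatory signals are a separate list. Tnfrsf1a, the main receptor of tumour necrosis factor, stood between 36.7 and 57 TPM in CAC and 8.87 and 15.5 TPM in NCAC (log2 1.69 ± 0.14, adjusted p = 3.89e-14; 1.22 rescaled, adjusted p = 2.53e-13). Il1r1, the interleukin-1 receptor, and Myd88, its adaptor, gave log2 differences of 1.46 ± 0.13 and 1.33 ± 0.16, or 1.09 and 0.93 rescaled. Of the 20 cytokine receptor and NF-kB genes tested, 17 were higher as deposited, and 11 were higher and 2 lower rescaled.

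Metallothioneins, small cysteine-rich proteins that bind zinc and copper, gave the largest log2(TPM + 1) differences among the genes named here, though the ratio of means was larger for Lcn2. Mt2 stood at 3710, 1190, 1830, 528 and 724 TPM in CAC and at 10.2, 4.98, 6.17, 17.5 and 10.9 TPM in NCAC. No library of one group came near the other (log2 6.96 ± 0.89, adjusted p = 1.53e-08; 6.47 rescaled, adjusted p = 2.3e-07). Mt1 stood at 4270, 1120, 1750, 670 and 716 TPM in CAC and at 33.1, 16.5, 21.6, 40.1 and 33.1 TPM in NCAC (log2 5.53 ± 0.69, adjusted p = 7.87e-09; 5.05 rescaled, adjusted p = 1.84e-07). Differences of means were 161-fold for Mt2 and 59-fold for Mt1, and without CAC replicate 1 they were 107-fold and 36.8-fold. The genes are close paralogs, and how reads fitting both were assigned is not given in the sources used here. All 14 metallothionein and zinc transporter genes tested were higher as deposited and 5 rescaled, most of them by far less than these. Slc30a2, a zinc exporter, rose from 0.662 to 1.62 TPM to between 3.5 and 14.1 TPM (log2 1.86 ± 0.38; 1.50 rescaled, adjusted p = 0.00118).

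The starts of both genes lie on the plus strand of chromosome 8, and their sequence is shown because they rose together. Capitals mark TGCACNC or TGCGCNC, the core of the metal response element bound by the zinc-sensing factor MTF1, on either strand, in the windows chr8:94172368-94172667 for Mt2 and chr8:94178839-94179138 for Mt1 (GRCm38.p6, from RefSeq).
Mt2: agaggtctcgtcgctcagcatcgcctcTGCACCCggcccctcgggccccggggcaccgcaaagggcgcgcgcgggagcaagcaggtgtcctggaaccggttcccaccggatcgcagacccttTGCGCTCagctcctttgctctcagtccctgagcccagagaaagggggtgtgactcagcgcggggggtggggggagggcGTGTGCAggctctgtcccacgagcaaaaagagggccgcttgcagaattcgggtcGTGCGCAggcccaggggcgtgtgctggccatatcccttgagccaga
Mt1: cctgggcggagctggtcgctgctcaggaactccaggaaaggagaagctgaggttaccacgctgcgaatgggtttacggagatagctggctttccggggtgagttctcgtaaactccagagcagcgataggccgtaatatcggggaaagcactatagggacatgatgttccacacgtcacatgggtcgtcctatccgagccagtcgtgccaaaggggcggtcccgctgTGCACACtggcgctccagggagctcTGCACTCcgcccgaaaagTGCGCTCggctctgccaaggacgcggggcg
The Mt2 window holds 4 matches and the Mt1 window 3, and 25.7% of 32817 promoter windows of the same length hold at least 1. Mtf1 itself gave a log2 difference of 0.40 as deposited, which passed the test, and of 0.02 rescaled, which did not; it is named after its values were seen.

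**Figure D1:**
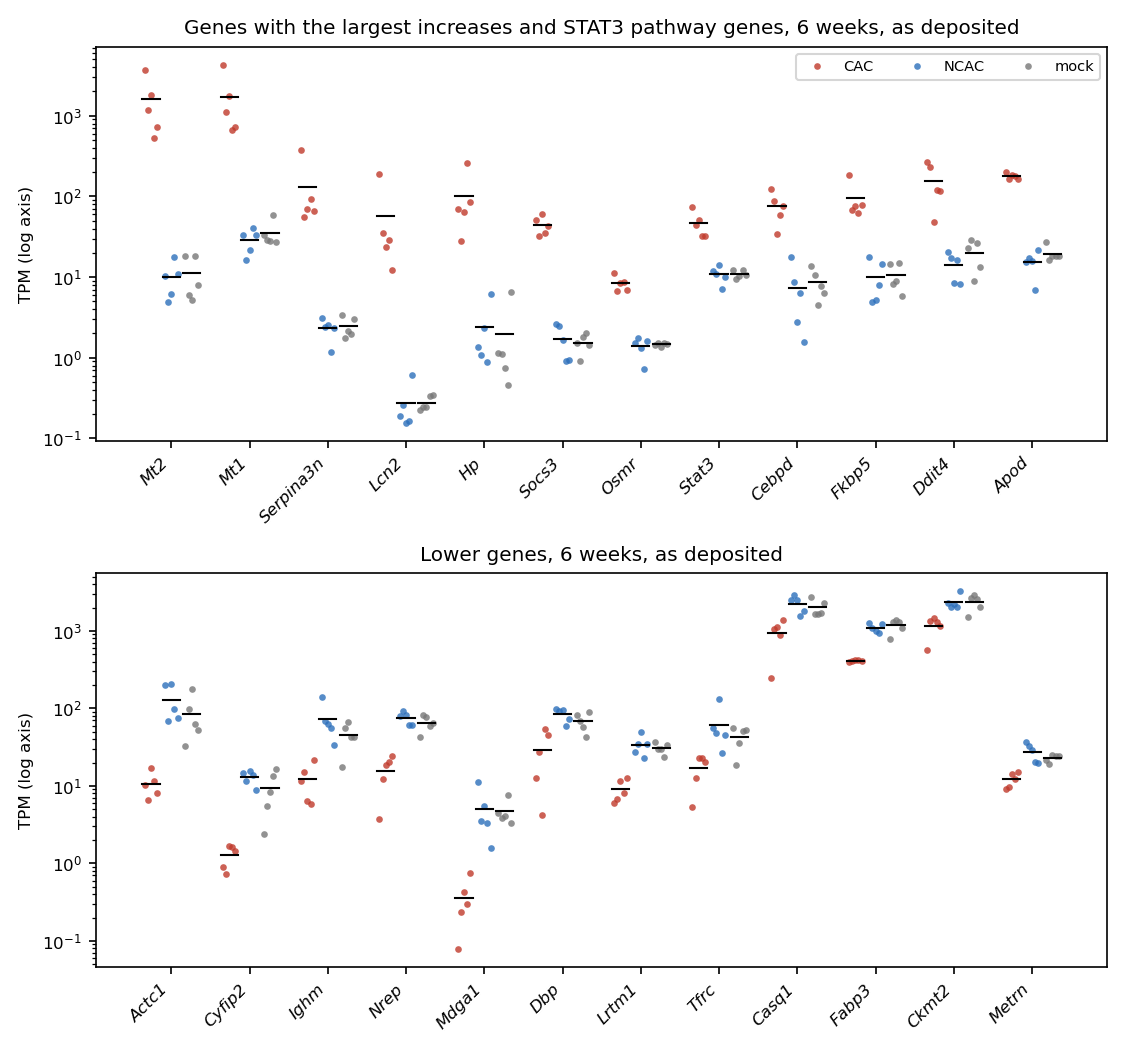
Each point is 1 library at 6 weeks, black bars are group means of 5 libraries, and the vertical axes are TPM on a log scale, as deposited, for CAC, NCAC and mock muscle. In the upper panel all CAC libraries lie above all NCAC libraries for every gene drawn; in the lower panel all lie below. Mock libraries reach into the CAC range for Ighm, Dbp and Tfrc only.

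Genes that glucocorticoids are known to induce formed the next group. Fkbp5, a co-chaperone of the glucocorticoid receptor, stood at 185, 68.7, 77.1, 62.8 and 78.9 TPM in CAC and at 17.5, 4.97, 5.13, 7.92 and 14.6 TPM in NCAC (log2 3.15 ± 0.61, adjusted p = 2.29e-05; 2.68 rescaled, adjusted p = 0.000421). Ddit4, which encodes the mTORC1 inhibitor REDD1, stood at 269, 231, 47.9, 120 and 118 TPM in CAC and between 8.26 and 20.5 TPM in NCAC (log2 3.24 ± 0.68, adjusted p = 6.5e-05; 2.76 rescaled, adjusted p = 0.00108). Cdkn1a, the cell cycle inhibitor p21, stood at 145, 54.8, 51, 29.9 and 32.6 TPM in CAC and between 7.6 and 12.3 TPM in NCAC (log2 2.47 ± 0.51, adjusted p = 6.3e-05; 2.00 rescaled, adjusted p = 0.00102). Hsd11b1, the enzyme that regenerates active glucocorticoid inside cells, gave a log2 difference of 1.23 ± 0.23 (0.91 rescaled, adjusted p = 0.0015). The receptor gene Nr3c1, named after its values were seen, gave -0.11 as deposited, which did not pass, and -0.57 rescaled, which did. Of 23 genes of this list tested, 18 were higher as deposited, and 13 were higher and 1 lower rescaled, with medians of 1.36 and 0.91. Mt2, Cebpd, Lcn2 and Cdkn1a are in this list as well as in others.

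Apod, which encodes the lipid carrier apolipoprotein D, varied little within CAC, with 163 to 202 TPM in CAC and 6.83 to 21.4 TPM in NCAC (log2 3.54 ± 0.29, adjusted p = 5.21e-14; 3.07 rescaled, adjusted p = 2.53e-13). Tmem252 and Ctxn3, also among the 12 largest increases, gave log2 differences of 3.06 ± 0.35 and 3.05 ± 0.40 (2.71 and 2.59 rescaled) and no overlap between groups.

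Genes on the route from insulin to FOXO and mTORC1 changed in both directions. Eif4ebp1, a repressor of cap-dependent translation, stood at 824, 368, 247, 246 and 204 TPM in CAC and at 45.9, 41.3, 33.2, 38.4 and 38.9 TPM in NCAC, a log2 difference of 3.03 ± 0.41 (adjusted p = 6.27e-08; 2.54 rescaled, adjusted p = 1.34e-06). Akt1, a kinase of the insulin route, rose from 13.5 to 28.5 TPM to between 42.6 and 145 TPM (log2 1.49 ± 0.23; 1.01 rescaled). Igf1r, the receptor of insulin-like growth factor 1, rose from 1.55 to 2.63 TPM to between 4.57 and 11.2 TPM (log2 1.23 ± 0.20; 0.84 rescaled). Of 24 insulin and FOXO genes tested, 18 were higher and 3 lower as deposited, and 10 higher and 3 lower rescaled. Of 15 brakes on mTORC1 and translation, 10 were higher as deposited, and 6 higher and 4 lower rescaled. All genes tested gave 64.2% higher as deposited and 20.8% rescaled, so the deposited count of brakes lay near the background. Without the pair of libraries that stood apart, 5 brakes were higher as deposited, and 2 higher and 2 lower rescaled.

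The muscle ubiquitin ligases MuRF1 and atrogin-1, which mark contractile and regulatory proteins for breakdown, are encoded by Trim63 and Fbxo32. In the GENCODE M21 annotation (GRCm38), Trim63 lies on chromosome 4, 134315120 to 134329629 on the plus strand, and Fbxo32 on chromosome 15, 58175879 to 58214932 on the minus strand. Trim63 stood at 1820, 1290, 225, 272 and 411 TPM in CAC and at 138, 137, 93.9, 73 and 114 TPM in NCAC. All CAC libraries were higher, but CAC replicates 1 and 2 stood far above the other 3 (log2 2.38 ± 0.56, adjusted p = 0.000266; 1.89 rescaled, adjusted p = 0.00352). Fbxo32 stood at 745, 470, 83.4, 208 and 162 TPM in CAC and at 94.1, 88.2, 39.3, 45.6 and 67.2 TPM in NCAC, and CAC replicate 3 fell within the NCAC range. Its log2 difference was 1.97 ± 0.56 (adjusted p = 0.00216; 1.48 rescaled, adjusted p = 0.0227), and the rescaled call was lost without CAC replicate 1, CAC replicate 2 or NCAC replicate 3. Fbxo31, another F-box ligase subunit, stood at 382 TPM in CAC replicate 1 and between 90.9 and 147 TPM in the other CAC libraries, against 38.4 to 63.3 TPM in NCAC (log2 1.54 ± 0.29; 1.06 rescaled, adjusted p = 0.00102). Ube4a, an E4 ubiquitin chain elongation factor, gave 1.65 ± 0.29 (1.19 rescaled, adjusted p = 0.000208). Of 23 ligases tested, 14 were higher and 1 lower as deposited, and 5 higher and 4 lower rescaled. Over all genes tested, 64.2% were higher as deposited and 20.8% rescaled, so the list's counts lay near the background. Without the pair of libraries that stood apart, 7 were higher as deposited and 3 rescaled.

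The proteasome degrades the marked proteins, and its subunits depended on the scaling. Psmd8, a lid subunit, stood at 189, 171, 88.6, 94.7 and 104 TPM in CAC and between 41.3 and 63.5 TPM in NCAC (log2 1.24 ± 0.21, adjusted p = 3.66e-06; 0.76 rescaled, adjusted p = 0.000925). Psma3, a core subunit, gave 0.77 ± 0.13, and 0.29 rescaled (adjusted p = 0.0117), with the rescaled call lost without CAC replicate 1. Of 33 proteasome genes tested, 32 were higher as deposited (median 0.72), and 12 higher and 1 lower rescaled (median 0.23); without CAC replicate 1, 7 were higher rescaled. Ubb, a polyubiquitin gene, stood between 1550 and 3170 TPM in CAC and 638 and 934 TPM in NCAC (log2 1.37 ± 0.37, adjusted p = 0.00138; 0.88 rescaled, adjusted p = 0.0341), and its rescaled call was lost without CAC replicate 1, CAC replicate 2, NCAC replicate 1 or NCAC replicate 3. Of the 24 ubiquitin and conjugating enzyme genes, 14 were higher as deposited, and 2 higher and 8 lower rescaled. All genes tested gave 64.2% higher as deposited, and 20.8% higher and 21.7% lower rescaled.

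Autophagy and lysosome genes serve the clearing of organelles and aggregates. Map1lc3a, an LC3 protein of the autophagosome membrane, stood at 654, 281, 327, 335 and 310 TPM in CAC and between 147 and 189 TPM in NCAC (log2 1.13 ± 0.20, adjusted p = 5.65e-06; 0.65 rescaled, adjusted p = 0.00225). Optn, an autophagy receptor, gave 1.21 ± 0.18 (0.73 rescaled, adjusted p = 0.000116), and Lamp2, a lysosomal membrane protein, 1.26 ± 0.17 (0.79 rescaled, adjusted p = 4.86e-06). Of 35 autophagy genes tested, 28 were higher as deposited, and 12 higher and 5 lower rescaled. Without the pair of libraries that stood apart, 17 were higher as deposited and 4 rescaled, and without CAC replicate 1 alone 6 rescaled. Of 28 lysosome genes, 24 were higher as deposited, and 12 higher and 2 lower rescaled.

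Most cytosolic ribosomal proteins were higher as deposited. Rpl3 stood at 67.7, 37.1, 37.8, 56.1 and 39.3 TPM in CAC and between 15.2 and 20.8 TPM in NCAC (log2 1.29 ± 0.15, adjusted p = 1.88e-09; 0.82 rescaled, adjusted p = 3.15e-06). Of 81 tested, 79 were higher as deposited and 52 were higher and 1 lower rescaled, with medians of 0.79 and 0.31; without the pair of libraries that stood apart, 76 and 56 were higher, and without CAC replicate 1 alone 35 were higher rescaled. Ribosomal protein genes have many processed copies in the genome, and how reads shared with them were assigned is not given in the sources used here. Eef1a1, the main elongation factor of most tissues, rose from 161 to 238 TPM to between 397 and 587 TPM (log2 1.19 ± 0.11, adjusted p = 4.93e-12; 0.70 rescaled, adjusted p = 3.59e-07). Myc, a transcription factor that drives ribosome production, rose from 0.815 to 2.24 TPM to between 4.79 and 9.63 TPM (log2 1.79 ± 0.26, adjusted p = 2.18e-07; 1.43 rescaled, adjusted p = 9.25e-06). Of 38 Myc and nucleolar genes tested, 36 were higher as deposited, and 16 higher and 1 lower rescaled, counts that became 20 and 7 higher without the pair of libraries that stood apart; without CAC replicate 1 alone 8 were higher and 4 lower rescaled.

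Ribosomal proteins of the mitochondrion went the other way once rescaled. As deposited, 16 of 74 were higher and 5 lower (median 0.03), and rescaled 61 were lower (median -0.43). The 16 became 6 without CAC replicate 1, 9 without NCAC replicate 4 and 2 without both, with 48 then lower rescaled. The 5 lower as deposited became 8 without NCAC replicate 4 and 3 without CAC replicate 1. Mrpl28, a large-subunit protein, stood at 38.1, 50.8, 56.4, 48.7 and 52.2 TPM in CAC and between 60.3 and 77.4 TPM in NCAC (log2 -0.50 ± 0.16, adjusted p = 0.00541; -0.98 rescaled, adjusted p = 2.09e-05).

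Amino acid transporters and stress genes followed. Slc3a2, the shared heavy chain of large neutral amino acid transporters, rose from 10.1 to 14.8 TPM to between 31 and 55.3 TPM (log2 1.52 ± 0.16, adjusted p = 4.62e-11; 1.05 rescaled, adjusted p = 3.42e-09). Asns, asparagine synthetase and a target of the stress factor ATF4, rose from 0.473 to 0.976 TPM to between 1.66 and 3.15 TPM (log2 1.15 ± 0.11, adjusted p = 1.43e-11; 0.85 rescaled). Atf4 itself stood at 518, 375, 298, 270 and 267 TPM in CAC and between 131 and 165 TPM in NCAC (log2 1.16 ± 0.22; 0.67 rescaled, adjusted p = 0.00514). Of 16 transporters tested, 14 were higher as deposited, and 10 higher and 1 lower rescaled, or 6 higher without the pair of libraries that stood apart. Of 18 genes of the integrated stress response, 12 were higher as deposited, and 7 higher and 4 lower rescaled. The deposited count lay near the background of 64.2% over all genes tested, which was 20.8% rescaled. Without CAC replicate 1, 4 genes of this list were higher and 2 lower rescaled. The secreted stress hormones Fgf21 and Gdf15, untested for low values and named after those were seen, stayed at or under 0.107 TPM.

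Myosin heavy chain mRNAs, which set the fibre type, were not called. Myh4, the fast 2B chain and the most abundant of them, stood at 16300, 14000, 9360, 11900 and 14300 TPM in CAC and at 10400, 13400, 11800, 4650 and 6270 TPM in NCAC. The groups overlapped, with a log2 difference of 0.58 ± 0.29 (adjusted p = 0.0671; 0.09 rescaled, adjusted p = 0.778), and the deposited difference passed the test when CAC replicate 3, NCAC replicate 2 or NCAC replicate 3 was left out. Myh1, the 2X chain, stood between 4150 and 5220 TPM in CAC and 3280 and 6630 TPM in NCAC, a difference of 0.09 ± 0.23. Myh2, the 2A chain, gave -0.37 ± 0.54 and Myh7, the slow chain, which was under 6 TPM in all 10 libraries, 0.76 ± 0.46. Of 9 heavy chains tested with limma, 0 passed under either scaling, with 1 at an unadjusted p under 0.05 as deposited and 0 rescaled; without NCAC replicate 4, 2 were higher as deposited (Myh6 and Myh7b, named after their values were seen).

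Other sarcomere genes changed singly. Actc1, the cardiac actin that skeletal muscle expresses mainly before birth and in regeneration, had the largest decrease among genes called under both scalings that averaged 5 TPM or more in one of the groups, from 198, 67.9, 208, 98.8 and 75.8 TPM in NCAC to 10.3, 6.67, 16.8, 11.7 and 8.04 TPM in CAC (log2 -3.38 ± 0.56, adjusted p = 2.19e-06; -3.84 rescaled, adjusted p = 1.19e-06). Des, the intermediate filament protein desmin, rose from 680 to 1070 TPM to between 2050 and 3580 TPM (log2 1.45 ± 0.19, adjusted p = 4.36e-08; 0.96 rescaled, adjusted p = 1.29e-05). Flnc, a Z-disc actin crosslinker, rose from 64.4 to 183 TPM to between 255 and 694 TPM (log2 1.58 ± 0.36; 1.09 rescaled, adjusted p = 0.00948). Mybph, a myosin-binding protein of the thick filament, stood between 2.46 and 21.1 TPM in CAC and 11.1 and 96.5 TPM in NCAC, with overlap (log2 -1.97 ± 0.70, adjusted p = 0.012; -2.38 rescaled, adjusted p = 0.00439), and the deposited call was lost without NCAC replicate 1. Myl3, a slow-muscle light chain, overlapped as well (log2 -1.57 ± 0.55, adjusted p = 0.0113, and -1.99 rescaled). Its deposited call was lost without CAC replicate 1. Of 10 slow-fibre markers, among them Myl3, 5 were higher and 1 lower as deposited, and 1 higher and 1 lower rescaled. Their medians were 0.80 and 0.48. Over all genes tested, 64.2% were higher as deposited and 20.8% rescaled. Of 21 actin, troponin and tropomyosin genes, 11 were higher and 1 lower as deposited, and 1 higher and 9 lower rescaled; leaving out NCAC replicate 4 gave 7 higher and 4 lower as deposited, and leaving out CAC replicate 1 gave 7 and 1.

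Calcium handling genes included both higher and lower members, and the lower calls as deposited were lost without CAC replicate 1. Sln, the pump inhibitor sarcolipin, stood at 30.9, 3.48, 21.3, 30.3 and 5.07 TPM in CAC and at 0.52, 1.67, 0.789, 4.09 and 2.63 TPM in NCAC, so CAC replicate 2 lay inside the NCAC range (log2 2.43 ± 0.44, adjusted p = 9.37e-06; 1.99 rescaled, adjusted p = 0.000489). Casq1, the calcium store protein of fast fibres, stood at 246, 1060, 1110, 896 and 1380 TPM in CAC and at 2480, 2940, 2500, 1540 and 1780 TPM in NCAC, with no overlap (log2 -1.42 ± 0.45, adjusted p = 0.00488; -1.91 rescaled, adjusted p = 0.000965). Its deposited call was lost without CAC replicate 1, the lowest library. Pvalb, the fast-fibre calcium buffer parvalbumin, gave -0.77 ± 0.31 (adjusted p = 0.0229; -1.26 rescaled, adjusted p = 0.000884), with the deposited call lost without CAC replicate 1, NCAC replicate 1 or NCAC replicate 2. Of 22 calcium genes tested, 7 were higher and 3 lower as deposited, and 2 higher and 9 lower rescaled; the 3 lower as deposited were no longer called without CAC replicate 1 or without the pair of libraries that stood apart. Without that pair 2 were higher as deposited, and 1 higher and 5 lower rescaled.

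Signals that muscle sends and receives also changed. Mstn, which encodes the growth inhibitor myostatin, stood at 42, 56.5, 35.5, 20.4 and 55.1 TPM in CAC and at 27.1, 21.2, 16.6, 11 and 10.4 TPM in NCAC. CAC replicate 4 fell within the NCAC range (log2 1.24 ± 0.33, adjusted p = 0.000998; 0.77 rescaled, adjusted p = 0.0345), and the rescaled call was lost in 5 of 10 runs that left out 1 library. Fst, its antagonist follistatin, was not called (0.22 ± 0.20, adjusted p = 0.313; -0.04 rescaled). Nog, the BMP antagonist noggin, rose from 3.38 to 5.13 TPM to between 12.2 and 25.1 TPM (log2 1.82 ± 0.21, adjusted p = 1.03e-09; 1.37 rescaled, adjusted p = 2.09e-06). Ostn, the myokine musclin, stood between 0.332 and 3.74 TPM in CAC and 3.01 and 16 TPM in NCAC (log2 -1.86 ± 0.46, adjusted p = 0.000535; -2.14 rescaled, adjusted p = 0.000158). Metrn, the secreted factor meteorin, stood between 9.16 and 15 TPM in CAC and 20 and 36.6 TPM in NCAC without overlap (log2 -1.12 ± 0.21, adjusted p = 1.42e-05; -1.57 rescaled, adjusted p = 1.03e-07). Of 13 myokine genes tested, 3 were higher and 5 lower as deposited, and 3 higher and 6 lower rescaled; without NCAC replicate 4, 1 was higher rescaled.

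A pair of clock-related genes changed in opposite directions. Dbp, a clock output factor, stood at 12.7, 27.3, 4.16, 54 and 45.3 TPM in CAC and at 97.4, 91.9, 96, 59.4 and 72.1 TPM in NCAC (log2 -1.92 ± 0.48, adjusted p = 0.000513; -2.38 rescaled, adjusted p = 0.000125). Nfil3, a repressor that competes for the same DNA sites, stood between 30.3 and 120 TPM in CAC and 7.28 and 20.5 TPM in NCAC (log2 2.62 ± 0.52, adjusted p = 3.23e-05; 2.15 rescaled, adjusted p = 0.00104). The hours at which the muscles were taken are not given in the labels, so their part in these values was not tested. Of 18 clock genes, 8 were higher and 2 lower as deposited, and 4 higher and 6 lower rescaled; without the pair of libraries that stood apart, 4 were higher as deposited.

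Further decreases came from genes of varied function. Cyfip2, a subunit of the actin-regulating WAVE complex, stood at 0.91, 0.722, 1.66, 1.62 and 1.46 TPM in CAC and between 8.96 and 15.4 TPM in NCAC (log2 -2.61 ± 0.46, adjusted p = 6.05e-06; -2.93 rescaled). Nrep stood between 3.7 and 24.2 TPM in CAC and 60.5 and 93.5 TPM in NCAC (log2 -2.37 ± 0.44; -2.82 rescaled), and Lrtm1 between 5.98 and 12.6 TPM and 22.8 and 50.2 TPM (log2 -1.81 ± 0.34; -2.26 rescaled). Mdga1, a membrane-anchored immunoglobulin-domain protein, was at or under 0.75 TPM in all CAC libraries and between 1.6 and 11.2 TPM in NCAC (log2 -1.97 ± 0.46, adjusted p = 0.000239). Nmrk2, a kinase that makes NAD precursor in muscle, stood at 9.63, 48.4, 122, 61.1 and 67.7 TPM in CAC and between 115 and 311 TPM in NCAC (log2 -1.73 ± 0.70, adjusted p = 0.0274; -2.20 rescaled, adjusted p = 0.0114). That call rested on CAC replicate 1, without which it was lost under both scalings, and the deposited call was also lost without NCAC replicate 3.

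Mitochondrial energy genes were lower, more so after rescaling. Ndufs1, the largest core subunit of respiratory complex I, stood at 119, 163, 165, 157 and 166 TPM in CAC and at 235, 238, 249, 183 and 245 TPM in NCAC (log2 -0.58 ± 0.12, adjusted p = 4.32e-05; -1.06 rescaled, adjusted p = 5.13e-07). Cox7a1, the muscle isoform of a cytochrome oxidase subunit, stood at 393, 727, 761, 741 and 659 TPM in CAC and between 975 and 1150 TPM in NCAC (log2 -0.75 ± 0.14, adjusted p = 8.25e-06; -1.24 rescaled, adjusted p = 7.4e-07). Neither gene overlapped between the groups. Uqcrfs1, the Rieske subunit of complex III, and Cox5a, another oxidase subunit, gave -0.31 ± 0.08 and -0.37 ± 0.10, or -0.80 and -0.86 rescaled, also with no overlap.

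By list, 13 of 37 complex I subunits were lower and 2 higher as deposited, and 35 lower rescaled; the deposited count was 7 without CAC replicate 1, and without the pair of libraries that stood apart 10 and 32 were lower. Of 42 nuclear-encoded subunits of complexes II to V, 17 were lower and 3 higher as deposited and 38 lower rescaled, against 11 and 33 lower without that pair. Of the 13 genes of the mitochondrial genome itself, 9 were lower as deposited and all 13 rescaled. The deposited count depended on NCAC replicate 4, the library with the most mitochondrial RNA: 4 were lower as deposited without it, and without CAC replicate 1 as well, 2 as deposited and 8 rescaled. mt-Nd3, a complex I subunit, stood between 10200 and 12100 TPM in CAC, 25200 TPM in NCAC replicate 4 and 12900 to 15700 TPM in the other NCAC libraries (log2 -0.54 ± 0.13, adjusted p = 0.000285; -1.03 rescaled, adjusted p = 6.95e-05).

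Fuel oxidation followed the respiratory chain. Fabp3, which carries fatty acids to the mitochondria of muscle, stood at 394, 403, 420, 417 and 408 TPM in CAC and at 1250, 1090, 1010, 925 and 1220 TPM in NCAC. The CAC libraries lay close together and far below every NCAC library (log2 -1.42 ± 0.23, adjusted p = 1.7e-06; -1.91 rescaled, adjusted p = 3.8e-07). Acaa2, the last enzyme of the beta-oxidation cycle, gave -0.73 ± 0.16 (-1.22 rescaled, adjusted p = 4.92e-06). Mdh2, the mitochondrial malate dehydrogenase, gave -0.41 ± 0.11 (-0.90 rescaled, adjusted p = 2.44e-07), with NCAC replicate 4 inside the CAC range as deposited. Of 32 fatty acid genes tested, 13 were lower and 7 higher as deposited, and 23 lower rescaled, with the 7 becoming 4 without the pair of libraries that stood apart. Of 31 genes of pyruvate oxidation and the tricarboxylic acid cycle, 9 were lower and 4 higher as deposited, and 25 lower rescaled; without NCAC replicate 4, 14 were lower and 2 higher as deposited. Of 19 genes of branched-chain amino acid breakdown, 3 were higher as deposited and 14 lower rescaled, and without the pair of libraries that stood apart 1 was higher and 2 lower as deposited.

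Ppargc1a, the coactivator PGC-1 alpha that drives mitochondrial gene expression, was not called, at 20.3, 14.1, 15.5, 18.7 and 16 TPM in CAC and 12.4, 13.7, 14.2, 7.78 and 13.9 TPM in NCAC. Its difference was 0.44 ± 0.21 (adjusted p = 0.0604) as deposited and -0.02 rescaled (adjusted p = 0.947), and the deposited difference passed without CAC replicate 2 or NCAC replicate 3. Pdk4, the kinase that closes the entry of pyruvate to the cycle, was not called either, with up to 1360 TPM in CAC, 250 to 715 TPM in NCAC and overlap (0.65 ± 0.59, adjusted p = 0.324). Ckmt2, the mitochondrial creatine kinase of muscle, stood at 571, 1330, 1450, 1310 and 1160 TPM in CAC and between 2040 and 3270 TPM in NCAC (log2 -1.07 ± 0.24, adjusted p = 0.000185; -1.56 rescaled, adjusted p = 3.72e-05).

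**Figure D2:**
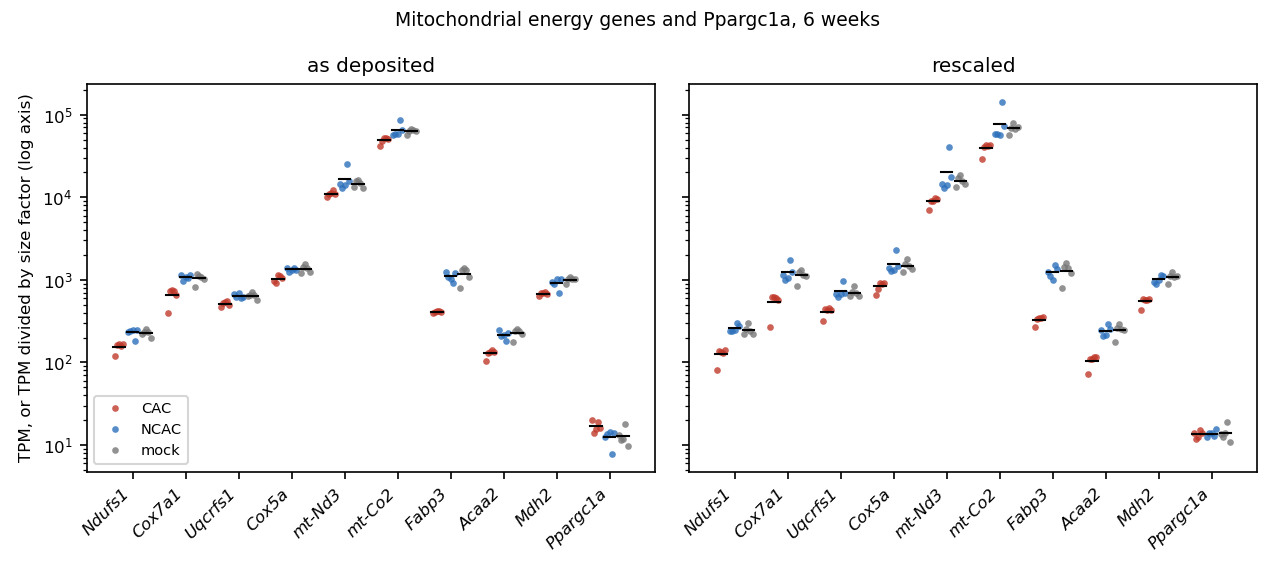
Points are single libraries at 6 weeks and black bars group means of 5, on a log axis, as TPM (left) and as TPM divided by the size factor of the library (right). The groups overlap for Ppargc1a in both panels and for Mdh2 on the left, and for the other genes all CAC points lie below all NCAC points.

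Glycolytic genes were split. Slc2a1, the glucose transporter GLUT1, rose from 2.48 to 3.58 TPM to between 6.23 and 10.4 TPM (log2 1.15 ± 0.17, adjusted p = 4.5e-07; 0.74 rescaled, adjusted p = 0.000232). Pfkfb4, a regulator of phosphofructokinase, gave 1.06 ± 0.17 (0.59 rescaled, adjusted p = 0.00241). Of 35 genes tested, 16 were higher and 3 lower as deposited, and 5 higher and 16 lower rescaled, or 10 lower rescaled without the pair of libraries that stood apart. The 3 lower as deposited became 5 without NCAC replicate 4 and 1 without CAC replicate 1. Ampd3, an AMP deaminase, rose from 1.71 to 3.09 TPM to between 4.14 and 30.8 TPM (log2 1.57 ± 0.41, adjusted p = 0.000975; 1.16 rescaled, adjusted p = 0.0119); CAC replicate 1 was the highest, and without it the 5.07-fold difference was 2.98-fold and the rescaled call was lost.

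Antioxidant and iron genes held single members with large differences. Gpx3, the secreted glutathione peroxidase, stood at 894, 502, 457, 381 and 508 TPM in CAC and at 128, 135, 109, 84 and 78.6 TPM in NCAC (log2 2.32 ± 0.30, adjusted p = 1.73e-08; 1.83 rescaled, adjusted p = 3.88e-07). Ftl1, the ferritin light chain that stores iron, rose from 179 to 230 TPM to between 377 and 809 TPM (log2 1.17 ± 0.19; 0.68 rescaled, adjusted p = 0.000499). Tfrc, the transferrin receptor that brings iron in, stood at 5.35, 12.8, 23, 23.2 and 20.3 TPM in CAC and at 56.4, 47.5, 133, 26.4 and 45.4 TPM in NCAC, lower in every CAC library (log2 -1.75 ± 0.50, adjusted p = 0.00216; -2.21 rescaled, adjusted p = 0.000546). Of 31 genes in this list, 19 were higher and 3 lower as deposited, and 10 higher and 9 lower rescaled, beside 64.2% of all genes tested that were higher as deposited.

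Lipid and matrix genes are shared with cells other than muscle fibres. Lpin1, a phosphatidate phosphatase and lipid coactivator, stood between 165 and 317 TPM in CAC and 54 and 108 TPM in NCAC (log2 1.43 ± 0.20, adjusted p = 7.07e-08; 0.94 rescaled, adjusted p = 4.6e-06). Lox, which crosslinks collagen, rose from 1.46 to 1.95 TPM to between 8.02 and 15.4 TPM (log2 2.11 ± 0.30, adjusted p = 1.9e-07; 1.70 rescaled, adjusted p = 3.2e-06), and Mmp14, a membrane collagenase, from 1.03 to 3.42 TPM to between 9.06 and 13.4 TPM (log2 1.73 ± 0.23; 1.34 rescaled). Of 30 collagen and matrix genes, 12 were higher as deposited, and 5 higher and 3 lower rescaled. Without NCAC replicate 4 these counts were 6 higher and 2 lower as deposited, and 4 higher and 8 lower rescaled. Over all genes tested 64.2% were higher as deposited and 20.8% rescaled, so the list was not raised above the background. Its medians, 0.16 and -0.17, were below those of all genes tested, 0.42 and 0.01. The collagens Col1a1, Col1a2 and Col3a1, given below with the fibroblast markers, had lower medians in CAC than in NCAC.

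**Figure D3:**
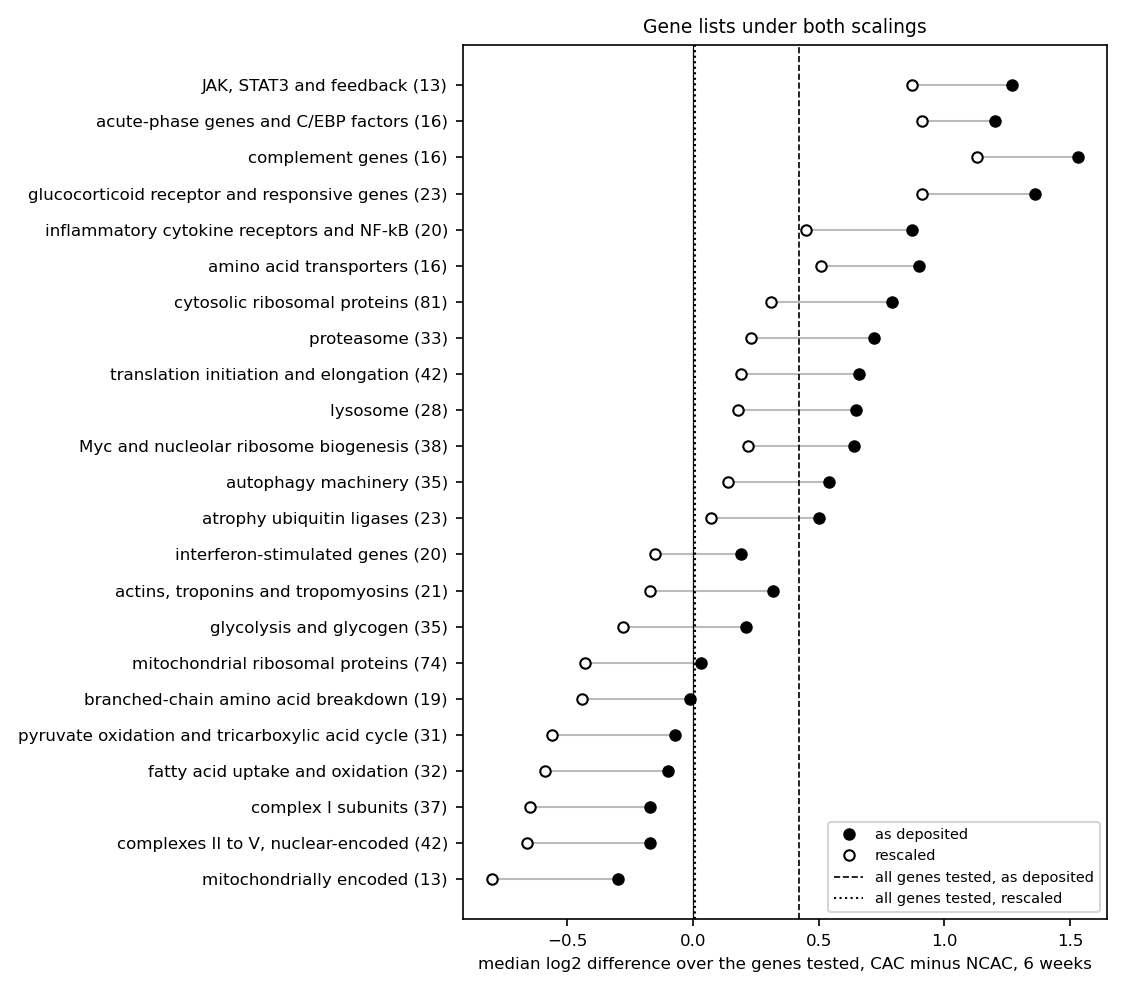
Each row is a gene list with the number of genes tested in brackets, and the horizontal axis is the median log2 difference, CAC minus NCAC, as deposited (filled) and rescaled (open). The dashed and dotted lines are the medians of all 11107 genes, 0.42 and 0.01; complement, STAT3, glucocorticoid and acute-phase lists lie to the right of both and the 3 respiratory chain lists to the left of both.

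Marker genes of other cell types were measured because whole muscle holds many cells. In such samples more cells of a type and more RNA per cell cannot be told apart. Macrophage markers summed to between 116 and 169 TPM in CAC (median 125) and 45.2 and 60.2 TPM in NCAC (median 55.1). Of 14 markers 11 were tested, and these 11 were higher as deposited and 8 rescaled. Cd163, a scavenger receptor of tissue macrophages, stood between 3.19 and 4.39 TPM in CAC and 0.353 and 0.811 TPM in NCAC (log2 1.53 ± 0.23, adjusted p = 4.05e-07; 1.23 rescaled, adjusted p = 1.79e-05). Adgre1, which encodes the macrophage antigen F4/80, was too low on average to be tested and reached 1.5 TPM in CAC and 6.21 TPM in NCAC; it is named after its values were seen.

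Immunoglobulin transcripts, made by B and plasma cells, were lower in CAC. Ighm, the heavy chain of immunoglobulin M, stood at 11.5, 15, 6.46, 5.9 and 21.6 TPM in CAC and at 141, 69.7, 63.1, 55.1 and 33.6 TPM in NCAC, with no overlap (log2 -2.48 ± 0.60, adjusted p = 0.000373; -2.93 rescaled, adjusted p = 0.000102). Of the 10 markers 3 were tested and 2 were lower. The second, the light chain Igkc, was called lower (-1.32 ± 0.53, adjusted p = 0.0244) but rested on NCAC replicate 4, at 20.2 TPM, without which its difference was -0.80 and not called under either scaling; the deposited call was also lost without CAC replicate 3. The third marker tested, Sdc1, named after its values were seen, went the other way. It had medians of 2.85 TPM in CAC and 2.02 TPM in NCAC with overlap, and was not called under either scaling. All 3 tested markers had an unadjusted p under 0.05 as deposited with limma. T cell markers summed to at most 0.925 TPM in CAC and 1.11 TPM in NCAC, too low for any to be tested.

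Endothelial markers summed to 294 to 387 TPM in CAC and 129 to 246 TPM in NCAC, and 11 of 13 were higher as deposited, and 5 higher and 1 lower rescaled. Fibroblast markers summed to 847 to 1120 TPM in CAC and 582 to 606 TPM in NCAC, except 197 TPM in NCAC replicate 4. Of the 12, 7 were higher as deposited and 4 rescaled, beside 64.2% and 20.8% of all genes tested. Without that library 4 were higher as deposited, and 3 higher and 2 lower rescaled. Dcn and Gsn had medians of 318 and 369 TPM in CAC and 135 and 211 TPM in NCAC. The medians of the collagens Col1a1, Col1a2 and Col3a1, named after their values were seen, went the other way. They were 14.6, 14.5 and 21.1 TPM in CAC and 30.8, 23.6 and 25.4 TPM in NCAC. Their groups overlapped, and with all libraries no fibroblast marker was called lower. Adipocyte markers summed to 543 to 1440 TPM and 362 to 573 TPM, with 6 of 7 tested higher as deposited and 4 rescaled. Retn, the adipocyte hormone resistin, gave 1.90 ± 0.37 (1.56 rescaled, adjusted p = 0.000947), with NCAC replicate 5 inside the CAC range. Keratinocyte markers summed to 193 TPM in NCAC replicate 5 and under 4 TPM in the other 9 libraries; Krt10 was called lower in CAC (-1.03 ± 0.40, adjusted p = 0.0203), and without that library its difference was -0.06 and not called. Of 11 melanocyte and melanoma markers, 8 were under 0.5 TPM in all 10 libraries, among them Pmel, Mlana, Tyr and Dct, which define pigment cells. The other 3 were higher in CAC as deposited. Gpnmb, which macrophages also express, stood between 1.62 and 10.6 TPM in CAC and 0.12 and 0.625 TPM in NCAC (log2 1.60 ± 0.33, adjusted p = 5.4e-05; 1.33 rescaled, adjusted p = 0.000292). Sox10, which Schwann cells also express, stood between 1.38 and 2.42 TPM and 0.415 and 1.23 TPM (log2 0.76 ± 0.14, adjusted p = 1.4e-05; 0.49 rescaled, adjusted p = 0.00222). Mitf, named like the pigment genes after its values were seen, gave 0.40 (adjusted p = 0.019), and -0.01 rescaled, which did not pass. Fast-fibre markers, the labelled tissue, summed to 91200 to 111000 TPM in CAC and 67900 to 114000 TPM in NCAC. The part of other cells in the complement, matrix and lipid results was not tested.

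**Figure D4:**
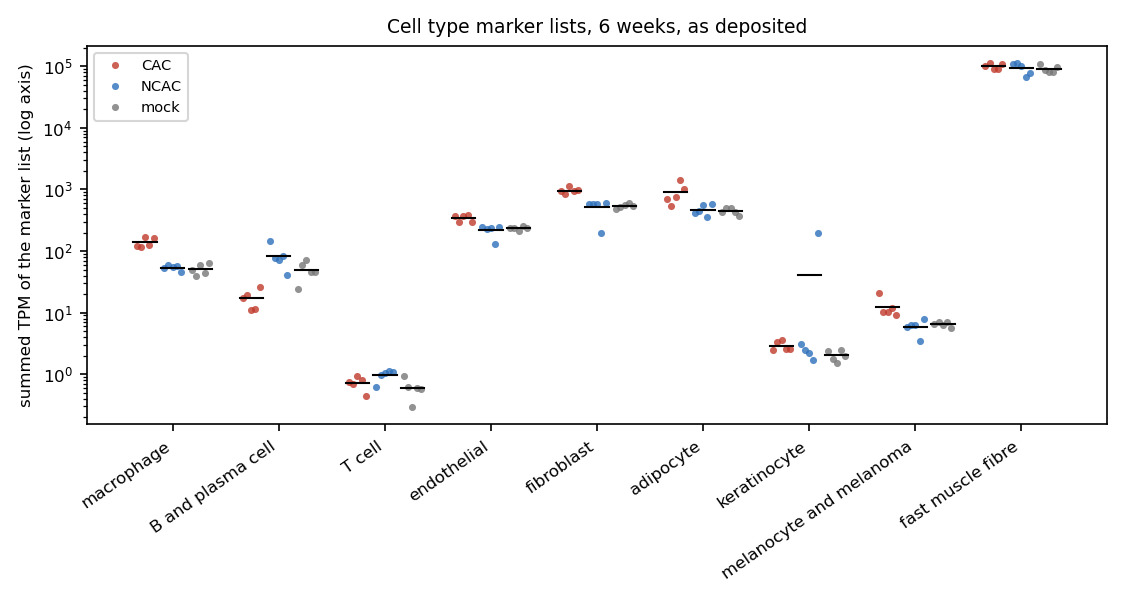
Points are single libraries at 6 weeks and bars group means of 5, with the summed TPM of each marker list on a log axis, as deposited. The CAC macrophage sums lie above all NCAC and mock sums, the CAC B cell sums below all NCAC sums, the T cell sums near or under 1 TPM, and NCAC replicate 5 is the isolated keratinocyte point at 193 TPM.

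Against the same groups at other weeks, the difference between CAC and NCAC was called for few genes at 2 weeks and, as deposited, for most at 6 and 8 weeks. At 2 weeks 7 genes were higher in CAC as deposited (0.063%), and 6 were called rescaled (0.054%), 5 higher (0.045%) and 1 lower. At 4 weeks 520 were higher and 65 lower (311 and 406 rescaled), and at 8 weeks 7446 and 560 (2805 and 2697 rescaled). Stat3 was already called at 2 weeks (log2 0.87, adjusted p = 0.0129). Socs3 gave 1.04 at 2 weeks, which did not pass (adjusted p = 0.164), 2.86 at 4 weeks (adjusted p = 1.99e-11), 4.08 at 6 weeks and 4.50 at 8 weeks (adjusted p = 2.44e-21). Mt2 gave 0.34, 3.74, 6.96 and 7.24 at the 4 weeks in turn, called from 4 weeks on. Trim63 gave 0.05, 1.11, 2.38 and 2.07, and Fbxo32 0.22, 0.99, 1.97 and 1.57; both were called at 6 and 8 weeks as deposited and not at 2 or 4 weeks, and Fbxo32 was not called at 8 weeks rescaled (adjusted p = 0.0656). Actc1 gave -1.74, -2.73, -3.38 and -3.51, called from 4 weeks on.

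The change between weeks was tested as its own term. The difference at 6 weeks exceeded that at 4 weeks for 75 genes as deposited (0.675%; 3013 at an unadjusted p under 0.05), with limma, and rescaled 1 gene passed, in the lower direction (0.009%; 1393 unadjusted). Apod was one of the 75, with a larger difference by 1.62 (adjusted p = 0.0423), and it did not pass rescaled (adjusted p = 0.16). Tnfrsf1a, Akt1, Asns and Eef1a1 were also among them. Leaving out single libraries of those weeks gave between 2 and 756 such genes. From 6 to 8 weeks 0 genes passed under either scaling (456 and 828, or 4.11% and 7.45%, at an unadjusted p under 0.05, with limma). For Socs3 that difference was 0.42 (adjusted p = 1), for Mt2 0.28, and for Trim63 -0.31.

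**Figure D5:**
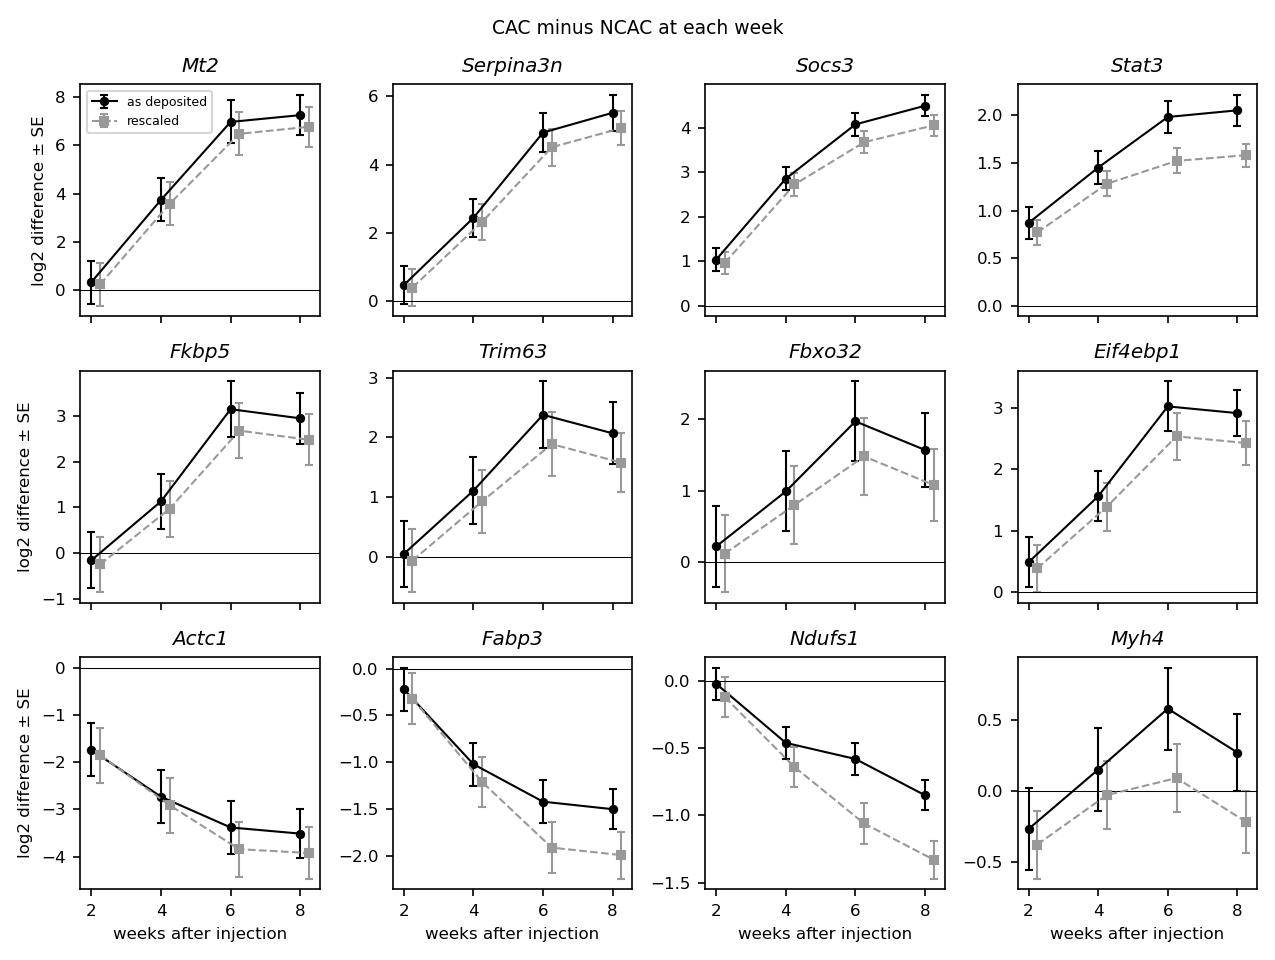
Each panel is 1 gene, the horizontal axis the weeks after injection and the vertical axis the log2 difference, CAC minus NCAC, with its standard error, as deposited (black circles) and rescaled (grey squares, set slightly to the right). Mt2, Serpina3n, Socs3 and Stat3 are furthest above 0 at weeks 6 and 8, Actc1, Fabp3 and Ndufs1 lie below 0, and Myh4 was not called at any week.

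Mice with non-cachectic melanoma were compared with mock injection at 6 weeks. With limma 0 genes passed under either scaling, and 118 and 324 of 11107 had an unadjusted p under 0.05 (1.06% and 2.92%). Socs3 stood at 1.72 ± 0.817 TPM (SD, n = 5) in NCAC and 1.54 ± 0.42 in mock muscle, Mt2 at 9.93 ± 4.9 and 11.2 ± 6.66, Trim63 at 111 ± 28 and 152 ± 39.8, and Fabp3 at 1100 ± 137 and 1170 ± 239 TPM. Actc1 stood at 130 ± 67.8 TPM in NCAC, 84.5 ± 57.2 in mock and 10.7 ± 3.91 in CAC muscle. A test that calls no gene does not show that NCAC and mock muscle were alike. CAC against mock gave 7103 called genes as deposited (64%), 6741 higher and 362 lower (3.26%), and 1872 and 2014 rescaled; it shares the CAC libraries with the main comparison and is not separate evidence.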

How the data were processed

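The authors deposited 1 table of TPM for 47643 genes in 62 libraries, and each column sums to 1000000. Per the submitters' processing notes, mm10 was the genome build; no source used here names the aligner, counter or annotation. TPM keeps no read depth, so no counting interval can be given. With limma 3.58.1 in R 4.3.3, a mean per group was fitted to log2(TPM + 1) over all 62 libraries (50 residual degrees of freedom, mean-variance trend) for the 11107 genes that averaged 1 TPM or more. Tests were two-sided with Benjamini-Hochberg adjustment, called under 0.05. Rescaled values are TPM divided by median-of-ratios size factors (0.613 to 1.47). The fit was tested on simulated data. Named genes are the 12 largest changes per direction called under both scalings (at least 5 TPM in the higher group, no predicted genes), up to 4 per list and a panel of 16; others are said to be chosen after their values were seen. The comparison, members and gene lists were chosen with earlier results of these data known. P-values rest on a spread pooled over all 62 libraries, and not on that of the 10 libraries compared alone. Figures were drawn with matplotlib 3.10.9.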

Additional observations from a re-analysis of the deposited data

Results flagged for a closer look

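Within the groups of 5 libraries, single values stood far from the others by Dixon's test, which chance flags in about 1 in 20 groups. The named genes number 216, and over so many groups chance alone would give many such flags. Whether those below exceed that number was not tested. CAC replicate 1 stood apart in its size factor, 1.47, and in Serpina3n (377 TPM), Fkbp5 (185 TPM), Akt1 (145 TPM), Map1lc3a (654 TPM), Des (3580 TPM) and Ftl1 (809 TPM), all high. The same library was low in Casq1 (246 TPM), Ndufs1 (119 TPM), Cox7a1 (393 TPM), Acaa2 (105 TPM) and Ckmt2 (571 TPM). NCAC replicate 4 was low in Il6st (15.7 TPM), Serping1 (7.63 TPM), Stat2 (1.45 TPM), Optn (26 TPM), Lamp2 (10.1 TPM), Mmp14 (1.03 TPM), Ppargc1a (7.78 TPM) and Ndufs1 (183 TPM). NCAC replicate 5 was high in Krt10 (72 TPM), in the sum of Krt5, Krt10 and Krt14 (109 TPM), in Ckmt2 (3270 TPM), in Cdkn1a (12.3 TPM) and in Lcn2 (0.617 TPM). NCAC replicate 2 was high in Tmem252 (0.866 TPM).

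The difference between CAC and NCAC was larger at 6 than at 4 weeks by limma's test as deposited for Apod (by 1.62 on the log2 scale), Akt1 (1.25), Tnfrsf1a (0.92), Asns (0.87) and Eef1a1 (0.73). None of these 5 passed that test rescaled.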

How the results depend on the processing

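As deposited, 7522 genes were called, 7131 higher and 391 lower. Rescaling gave 4728, 2315 and 2413. With only the groups compared in the limma fit, 5982 were called as deposited, 5655 higher and 327 lower. The same fit rescaled gave 1993 higher and 2171 lower. Without CAC replicate 1 and NCAC replicate 4 together, an alternative chosen after seeing the data, 4750 were called and 4381 were higher. The lower count was 881 with no filter on low values (9401 of 23019 genes called), 260 with the spread weighted per group and 1019 without mitochondrially encoded genes. Leaving out 1 library gave 6200 to 7709 called, 5663 to 7396 higher and 265 to 537 lower, with 265 without CAC replicate 1 and 537 without NCAC replicate 4. The 75 genes that differed more at 6 than at 4 weeks became 1 rescaled, 18 with a pseudocount of 0.1, 33 with a replicate block, 12 with the spread weighted per group, 14 without mitochondrially encoded genes, 0 with only the groups compared in the limma fit, 0 without both libraries, and 2 to 756 when 1 library was left out. From 8 against 6 weeks the count of 0 became 1 with no filter, 1 with a replicate block, 4 without both libraries and 0 to 1 when 1 library was left out. The cause of these shifts was not tested. A replicate block gave 7434 called genes. Deviations from the group mean of same-numbered libraries correlated between -0.0261 and 0.204. CAC replicates 2 and 3 correlated best with the NCAC library of their own number (0.204 and 0.106), and replicates 1, 4 and 5 did not. Whether same-numbered libraries shared any handling was not tested. Of the 216 named genes, 215 kept their side of the threshold with the block and 205 without both libraries. Rescaled, no called direction reversed; most of these genes were chosen on calls under both scalings. The uncalled differences of Ppargc1a, Fst and Myh1 changed sign. TPM keeps no depth, so how far depth limits low genes cannot be given.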
